A study of Drosophila melanogaster and Drosophila yakuba and Drosophila virilis with 31 samples.

Results

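Mitochondrial ribosomal protein genes were followed in single eggs and single blastoderm embryos of 4 Drosophila species. The set held every gene whose name in the deposited abundance table begins with mRpL or mRpS, which was 34 of 5993 genes with 1 ortholog in each species. By name, 20 encode proteins of the large ribosomal subunit (mRpL) and 14 proteins of the small subunit (mRpS). The choice used names only and no measured value. All 34 passed the filter on low values, a mean above 1 FPKM (sequenced fragments scaled to transcript length and library size) in at least 1 group.

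The samples were single embryos at the end of the blastoderm stage, with cellularization complete and gastrulation not begun, and single unfertilized eggs. They came from 1 strain per species, D. yakuba Tai18E2 (yak), D. pseudoobscura MV2-25 (pse), D. virilis V46 (vir) and D. melanogaster Oregon-R (mel). Embryos had been sexed by PCR for the Y chromosome, and there were 3 female and 3 male libraries per species. Because of low data quality, 1 pse female embryo and 1 vir male embryo were left out. This gave 5 pse embryos, 5 vir embryos, 6 yak embryos and 6 mel embryos, and 1 pse egg, 2 vir eggs, 2 yak eggs and 2 mel eggs. No embryo or egg carried a mutation or received a treatment. Each library came from another individual, and 1 strain stands for each species, so that strain and species cannot be told apart.

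Mitochondria carry ribosomes of their own, which translate the few mRNAs of the mitochondrial genome into core subunits of the respiratory chain and ATP synthase. Their RNA is encoded in the mitochondrion, but their proteins are encoded in the nucleus, made in the cytoplasm and imported, so that one ribosome draws on many nuclear genes. Some of these proteins are related to bacterial ribosomal proteins and others are found only in mitochondria. In Drosophila the egg is loaded by the mother with both mitochondria and mRNA, and the zygotic genome is switched on broadly at the blastoderm stage. An embryo level therefore can hold maternal mRNA that is left and zygotic mRNA that has been made. In whole embryos, less mRNA per cell and fewer cells with the mRNA cannot be told apart.

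The 34 genes lay on every large chromosome arm of D. melanogaster (FlyBase release 5 coordinates). There were 14 on 3R, 8 on the X, 6 on 3L, 3 on 2L and 3 on 2R. The 8 on the X were mRpL3, mRpL14, mRpL22, mRpL30, mRpL38, mRpS14, mRpS25 and mRpS30. The 6 on 3L (mRpL2, mRpL12, mRpL15, mRpL50, mRpS26 and mRpS34) are autosomal in mel, yak and vir but belong to a second X arm in pse. In D. melanogaster 12 of the 34 overlapped another gene of the table, and the sources used here do not state whether the counting used strand, so reads of the overlap cannot be assigned to one gene of the pair with certainty. Those named below with values include mRpL30 (overlapping torp4a), mRpL1 (Gfr), mRpL11 (CG8461), mRpL15 (Psn) and mRpL32 (CG1750). The others with values are mRpL48 (frtz), mRpL50 (Neos), mRpS24 (CG6182), mRpS25 (CG14414) and mRpS9 (CG10092 and FBgn0260005).

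Stage and sex markers followed the labels. The zygotic segmentation gene ftz had 101.4 to 261.7 FPKM in the 22 embryos, against 0 in the 7 eggs, and maternal bcd had 0.2064 to 1.70 FPKM in embryos, against 47.64 to 95.6 FPKM in eggs. Sxl, the female switch gene of sex determination, had 358.2 to 926.1 FPKM in females and 51.36 to 139.8 FPKM in males. All values below are FPKM that had been scaled so that the 75th percentile of autosomal genes was equal between libraries. On this scale the sum over all genes was 448973 to 556054 FPKM in embryos and 282401 to 370304 FPKM in eggs. Embryos and eggs thus did not overlap in a quantity that a scaling sets, and the calls between them depended on the scaling, as given with the counts. The depth of the libraries is unknown from these values, so its part in the precision cannot be told apart from that of the few replicates.

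As a group the genes were expressed in every library. Their levels summed to 1027.1 to 1479.3 FPKM in yak embryos and 1182.3 to 1429.6 FPKM in yak eggs, to 1440.7 to 1649.6 FPKM in pse embryos and 1588.3 FPKM in the pse egg, to 1300.4 to 1665.5 FPKM in vir embryos and 1426.4 to 1583.3 FPKM in vir eggs, and to 1522.6 to 1975.9 FPKM in mel embryos and 1408.5 to 1574.9 FPKM in mel eggs. The sum in embryos overlapped that in eggs in the 3 species with 2 eggs, and in pse the egg lay within the range of the embryos. As a share of all FPKM of the table, which no scaling by a constant alters, the genes took less in embryos than in eggs. The share was 0.3245% to 0.393% in mel embryos, against 0.4988% and 0.5014% in mel eggs, and 0.2288% to 0.2808% in yak embryos, against 0.4021% and 0.4506% in yak eggs. It was 0.264% to 0.3212% in pse embryos, against 0.5059% in the pse egg, and 0.2854% to 0.3297% in vir embryos, against 0.4167% and 0.4276% in vir eggs. Embryos and eggs did not overlap in this share in any of the 4 species, while the sum over all genes was itself larger in embryos. In FPKM with no further scaling, the median embryo minus egg difference in log2(FPKM + 1) over the 34 genes was -0.65 in pse, -0.33 in vir, -0.60 in yak and -0.38 in mel. Over all genes with a mean over 10 FPKM it was -0.575, -0.20, -0.53 and -0.55 in this order. The lower share was thus not shown to be particular to these genes.

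**Figure D1:**
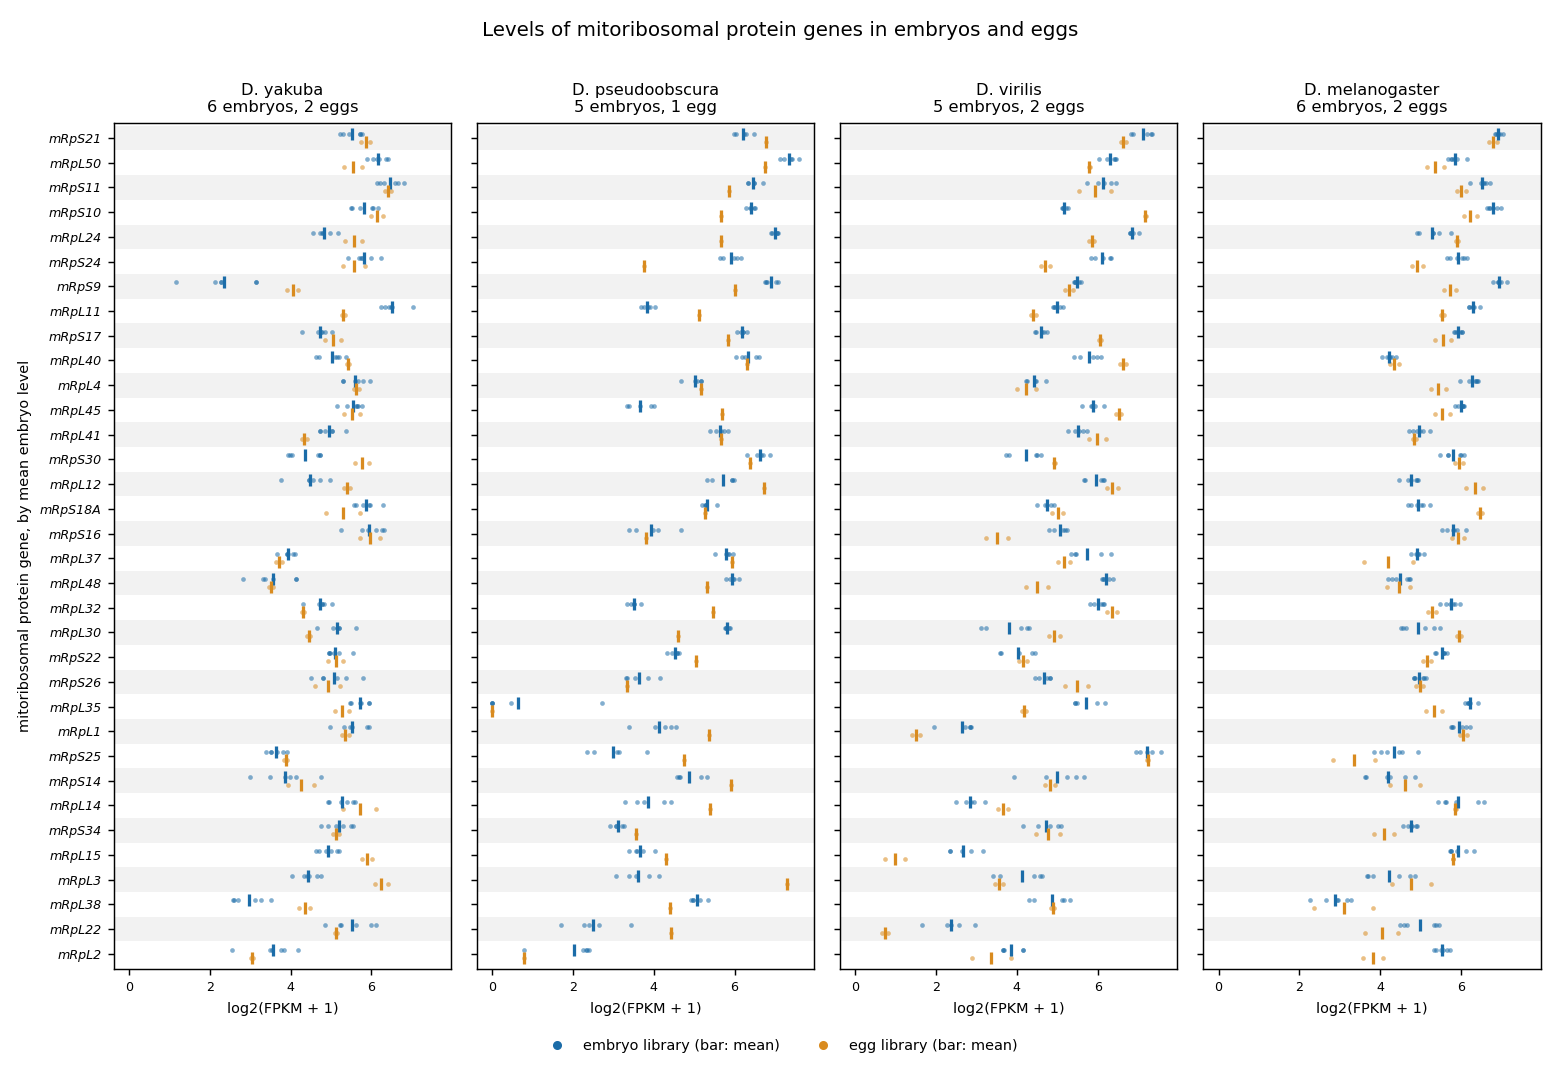
Levels of the 34 mitochondrial ribosomal protein genes in each library, as log2(FPKM + 1), with a panel for each species. Blue points above are embryos, orange points below are eggs, and vertical bars are means. mRpS21 had the highest mean embryo level (6.44) and mRpL2 the lowest (3.74), and mRpL35 in pse and mRpS9 in yak lay far to the left of their position in the other species.

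Averaged over the 4 species, the highest embryo levels were those of mRpS21 (6.44 on the scale of log2(FPKM + 1)), mRpL50 (6.43) and mRpS11 (6.398). The proteins mRpS21 and mRpS11 sit on the platform of the small subunit in bacterial ribosomes. mRpS21 had 36.25 to 53.46 FPKM in the 6 yak embryos, 62.08 to 88.89 FPKM in the 5 pse embryos, 112.9 to 161.2 FPKM in the 5 vir embryos and 114.4 to 131.6 FPKM in the 6 mel embryos. mRpS11 had 69.38 to 110.2 FPKM in yak embryos, 79.3 to 103.6 FPKM in pse embryos, 52.2 to 87.0 FPKM in vir embryos and 73.94 to 104.5 FPKM in mel embryos. The ranges of mRpS11 overlapped between all 4 species, while those of mRpS21 overlapped only between vir and mel embryos. The lowest mean embryo levels were those of mRpL2 (3.74), mRpL22 (3.84) and mRpL38 (3.94), the last 2 of them X-linked.

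The levels of most of these genes differed between species. The mean embryo level spanned more than 1 on the log2 scale between the highest and the lowest species for 30 of 34 genes (88.2%), beside 78.7% of all genes tested, and the median span was 2.05, beside 1.66 over all genes. Against mel embryos, yak embryos were higher for 5 and lower for 17 of the 34 genes (limma, Benjamini-Hochberg adjusted p below 0.05, where 28.7% of all genes were called higher and 38.5% lower). In pse embryos 13 genes were higher and 18 lower than in mel embryos (35.6% and 42.2% of all genes), and in vir embryos 11 were higher and 15 lower (38.3% and 42.2%). In eggs, 6 genes were higher and 9 lower in yak than in mel (14.8% and 15.7% of all genes), 10 and 9 in pse (20.6% and 18.8%), and 10 and 13 in vir (24.8% and 28.4%). Without mel egg 2, 8 genes were called between yak and mel eggs in either direction, against 15 with it. All of these comparisons share the mel libraries.

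The widest spans belonged to 4 genes. mRpL35, a protein of the large subunit shared with bacteria (3R:17849265-17850063), had a span of 5.59. Among the pse embryos it was at 5.53 and 0.379 FPKM in 2 and at 0 or 1e-04 FPKM in the other 3, and the pse egg was listed at 0. In the other species it had 43.16 to 60.01 FPKM in yak embryos, 42.14 to 71.27 FPKM in vir embryos and 68.39 to 85.36 FPKM in mel embryos. The pse annotation gives this gene a span of 592 bases, against 799 bases in mel, and the part of the gene model in these values was not tested. A value listed at 0 can be a failed estimate, and no fold is given against it.

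mRpS9, a protein of the small subunit head (3R:3714996-3728384), was the lowest in yak. The 6 yak embryos had 1.22 to 7.77 FPKM with a median of 3.84, while the 6 mel embryos had 110.6 to 139.6 FPKM with a median of 121.9. Every yak embryo was below every mel embryo, with a difference, yak minus mel, of -4.61 ± 0.21 (SE) on the log2(FPKM + 1) scale (adjusted p = 1.29e-14). In eggs the same difference was -1.69 ± 0.37, from 17.15 and 13.9975 FPKM in yak eggs and 58.39 and 46.74 FPKM in mel eggs. Its D. melanogaster gene model spans 13389 bases and covers 2 other genes.

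mRpS25, a small subunit protein found in mitochondria and not in bacteria (X:14476168-14477015), stood out in vir. The 5 vir embryos had 122.1, 132.5, 147.5, 162.2 and 187.9 FPKM, and the 6 mel embryos had 13.49 to 29.92 FPKM with a median of 19.04. The vir minus mel difference was 2.85 ± 0.17 (adjusted p = 3.15e-13) in embryos and 3.90 ± 0.27 in eggs, where vir had 152.3 and 149.5 FPKM and mel 6.09 and 13.7 FPKM. The excess in vir was thus present in the egg and in the embryo alike.

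mRpL2, whose bacterial counterpart lies by the peptidyl transferase centre (3L:11113958-11115141), was lower in the other species than in mel. It had 4.82 to 17.24 FPKM in yak embryos, 0.712 to 4.23 FPKM in pse embryos and 11.55 to 16.89 FPKM in vir embryos, against 39.64 to 52.64 FPKM in mel embryos. The pse minus mel difference was -3.59 ± 0.25 in embryos and -3.05 ± 0.51 in eggs, the latter resting on 1 pse egg at 0.708 FPKM. The annotated span of mRpL2 was 2568 bases in yak, against 1184 bases in mel.

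The embryo was next compared with the egg, which asks how the level stood after zygotic genome activation relative to the maternal load. No common direction was found. In mel, 16 of the 34 genes were higher and 5 lower in embryos than in eggs (44.2% of all genes were called higher and 32.0% lower). The counts for pse embryos were 6 higher and 11 lower (35.4% and 32.0% of all genes), those for vir embryos 12 and 10 (44.4% and 27.2%), and those for yak embryos 6 and 8 (38.6% and 33%). The 34 genes had a median difference of -0.01 in pse, where the median over all genes was 0.08, of 0.13 in vir (all genes 0.25), of 0.01 in yak (all genes 0.08) and of 0.25 in mel (all genes 0.18). The pse comparison had 1 egg, which was assumed to vary like the other libraries. Without mel egg 3, the mel count of higher genes was 9, and without vir egg 1 the vir count of lower genes was 6.

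These counts moved with the scaling that the authors had applied. The authors deposited 6 tables of the same libraries. One held the FPKM with no further scaling, 3 were scaled by the 50th, 75th or 95th percentile, and 1 each by TMM and by quantiles. In mel the count of genes called higher and lower was 16 and 5 with the 75th percentile, 1 and 16 with unscaled FPKM (33.4% and 43.2% of all genes), 19 and 3 with the 50th percentile (50.1% and 25.7%), 1 and 20 with the 95th percentile (30.9% and 45.7%), 6 and 8 with TMM (37.8% and 38.7%), and 16 and 6 with quantiles (38.1% and 35.7%). In yak it ranged between 19 and 4 with the 50th percentile (47.5% and 24.5% of all genes) and 1 and 24 with the 95th (27.1% and 45.4%), and in pse between 15 and 7 (45% and 22.6%) and 3 and 20 (23.3% and 44.5%) for the same tables. In vir it changed less, between 12 and 10 with the 75th percentile and 8 and 15 with the 95th (32.2% and 37.7%). The median over all genes moved with the table as well, between 0.40 and -0.28 for pse, 0.25 and 0.00 for vir, 0.34 and -0.17 for yak and 0.43 and -0.17 for mel.

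**Figure D2:**
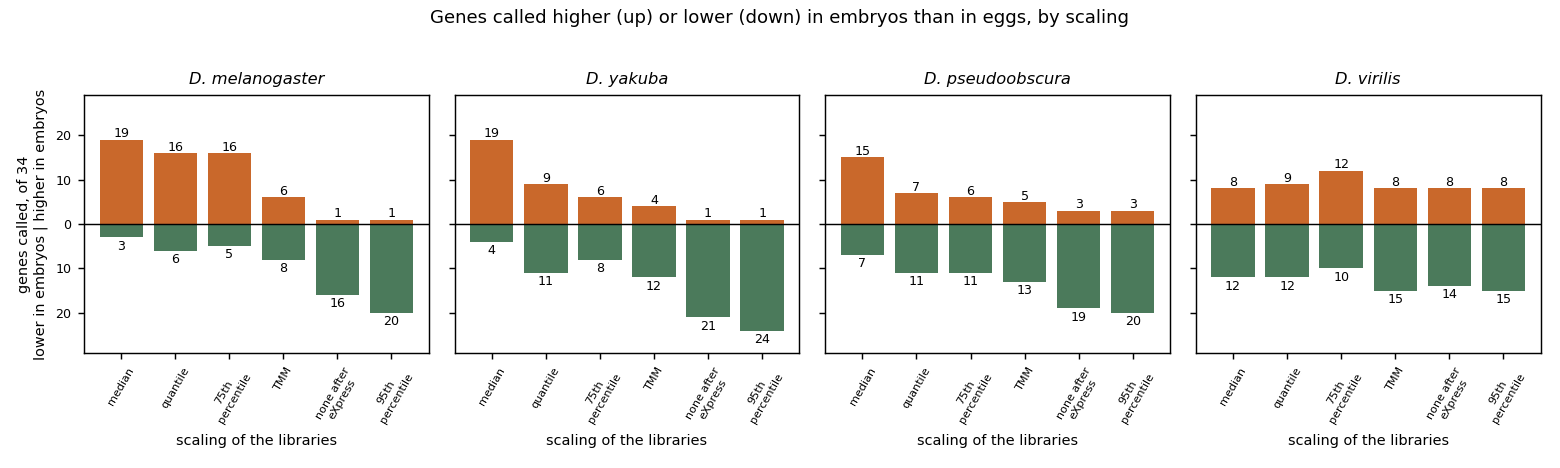
Counts of the 34 genes called higher (bars up) or lower (bars down) in embryos than in eggs at an adjusted p below 0.05, for each species and each of the 6 deposited scalings. In mel the split ran between 19 higher and 3 lower with the 50th percentile and 1 higher and 20 lower with the 95th.

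A count relative to the median of genes with a mean over 10 FPKM moved less. A scaling by a constant shifts such genes nearly alike, so this steadiness is largely built in and is no evidence about the 34 genes. Of the 34 genes, 14 or 15 (pse), 14 to 18 (vir), 13 or 14 (yak) and 18 to 21 (mel) had a difference above the median of the 4014 genes with a mean over 10 FPKM, over all 6 tables. Relative to such genes the 34 thus lay on both sides in every table. Only directions that were called in each of the 6 tables are therefore described as independent of the scaling here. These were 3 higher and 7 lower genes for pse, 6 and 10 for vir, 1 and 4 for yak and 1 and 3 for mel. The share of all genes that kept a call in all 6 tables was not counted, so these counts cannot be set against other genes.

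**Figure D3:**
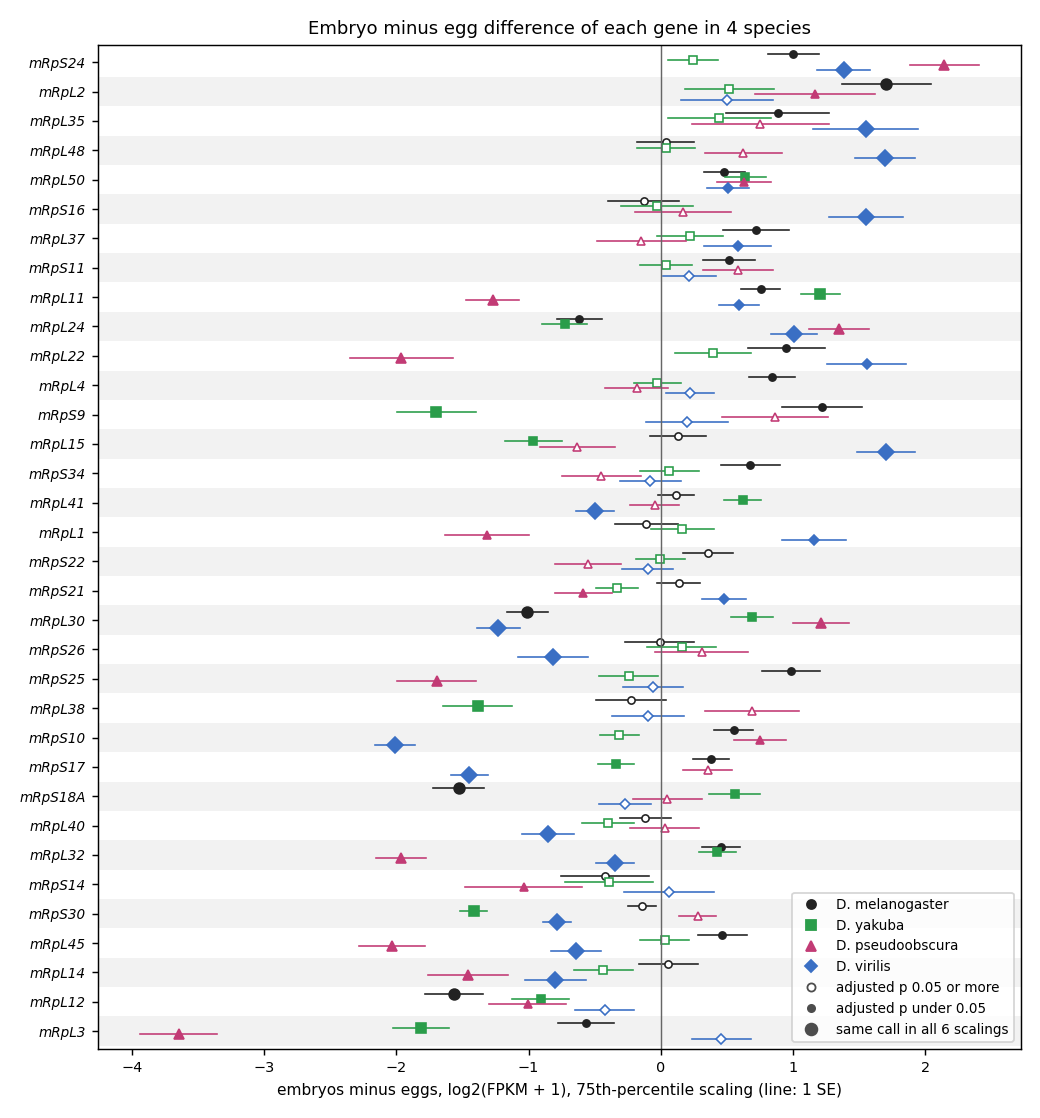
Embryo minus egg difference of each gene in log2(FPKM + 1) with its standard error, in the 4 species, sorted by the mean difference. Filled symbols have an adjusted p below 0.05 and large symbols have the same call in all 6 scalings. mRpS24 stands at the upper end with 2.15 in pse, and mRpL3 at the lower end with -3.65 in pse.

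Among the genes higher in embryos, mRpS24 had the largest mean difference. It is the counterpart of bacterial S3, at the entry of the mRNA channel (3R:19988528-19989246). The pse embryos had 48.72, 51.4, 62.87, 65.36 and 70.87 FPKM, and the pse egg 12.52 FPKM. The vir embryos had 55.97, 59.89, 69.67, 78.21 and 79.89 FPKM, and the vir eggs 27.06 and 23.3 FPKM. In both species every embryo was above every egg. The difference was 2.15 ± 0.26 in pse (adjusted p = 1.42e-07) and 1.38 ± 0.20 in vir (adjusted p = 1.53e-06), and both were called in all 6 tables. In mel, with 49.9 to 69.95 FPKM in embryos and 32.28 and 26.69 FPKM in eggs, it was 1.00 ± 0.19 and was called in 4 of the 6 tables. In yak the embryos (42.14 to 74.66 FPKM) overlapped the eggs (38.41 and 55.83 FPKM). The embryo levels of this gene were the most alike of all 34 between species, with a span of 0.30.

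mRpL2 was higher in embryos in mel under every scaling. Its mel embryos had 39.64 to 52.64 FPKM with a median of 45.1, and its mel eggs 15.95 and 10.87 FPKM, a difference of 1.71 ± 0.34 (adjusted p = 8.78e-05). In pse the difference was 1.16 ± 0.45, from levels under 5 FPKM in embryos and 0.708 FPKM in the egg. It was not called without pse female embryo 2 (0.77).

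mRpL35 and mRpL48 were higher in vir embryos than in vir eggs in all 6 tables. mRpL35 had 42.14, 42.57, 44.21, 62.48 and 71.27 FPKM in vir embryos and 16.55 and 17.54 FPKM in vir eggs, a difference of 1.55 ± 0.40. mRpL48, which lies in the central protuberance of the large subunit in mammals (2L:1710465-1711466), had 67.52, 68.61, 70.22, 76.89 and 82.07 FPKM in vir embryos and 26.49 and 17.84 FPKM in vir eggs, a difference of 1.70 ± 0.22 (adjusted p = 5.06e-07). Both genes separated the vir embryos from the vir eggs. In mel, mRpL48 differed by 0.04 ± 0.22, with eggs (25.76 and 17.09 FPKM) about the embryos (17.26 to 25.58 FPKM). The mel difference of mRpL35 (0.88 ± 0.39) was lost in 7 of the 29 fits that each left out 1 library.

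Among the genes lower in embryos, mRpL3 had the largest differences. It is an early-assembling core protein of the large subunit (X:15655292-15656696). The pse embryos had 7.29, 9.48, 10.86, 13.71 and 16.59 FPKM, and the pse egg 155.8 FPKM. The yak embryos had 15.49 to 25.74 FPKM with a median of 20.55, and the yak eggs 67.12 and 83.83 FPKM. No embryo of either species reached an egg. The differences were -3.65 ± 0.29 in pse (adjusted p = 1.77e-10) and -1.81 ± 0.21 in yak (adjusted p = 8.14e-08), and they were called in all 6 tables. In vir, where the females alone were above the eggs, it was 0.46 ± 0.22 (adjusted p = 0.0681). In mel it was -0.56 ± 0.21, and without mel egg 3 it was -0.09 and not called. In pse mRpL3, like mRpS30, is placed on an unassigned scaffold, with a span of 832 bases beside 1405 bases in mel.

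mRpL12, the stalk protein that recruits translation GTPases in bacteria (3L:8949891-8950684), was lower in mel embryos under every scaling. It had 21.06 to 29.77 FPKM with a median of 27.57 in mel embryos and 92.33 and 69.52 FPKM in mel eggs, a difference of -1.56 ± 0.22 (adjusted p = 8.72e-07). In pse it had 39.03, 42.45, 60.01, 60.76 and 61.99 FPKM in embryos and 105 FPKM in the egg, and in yak 12.57 to 30.52 FPKM in embryos and 38.97 and 43.19 FPKM in eggs. In vir it had 49.96, 50.75, 66.52, 69.25 and 70.89 FPKM in embryos and 89.12 and 74.54 FPKM in eggs, a difference of -0.42 ± 0.22 (adjusted p = 0.0964) that was called in the other 5 tables. The eggs stood above every embryo in all 4 species.

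mRpL45, near the exit tunnel at the inner membrane in mammals (3R:18444184-18445548), and mRpL14 (X:2238029-2238670) complete the lower end. mRpL45 had 9.11, 9.41, 11.62, 14.3 and 15.01 FPKM in pse embryos and 50.62 FPKM in the pse egg, a difference of -2.03 ± 0.25 (adjusted p = 2e-07). In mel the difference was 0.47, with 57.34 to 66.55 FPKM in embryos and 51.98 and 39.8 FPKM in eggs, its sign turned with unscaled FPKM (-0.16), and its call was lost without mel egg 3 (0.28). mRpL14 had 8.70, 11.05, 12.53, 18 and 20.41 FPKM in pse embryos and 41.09 FPKM in the pse egg (-1.46 ± 0.30), and 4.65, 5.73, 6.25, 6.62 and 8.22 FPKM in vir embryos and 10.48 and 12.66 FPKM in vir eggs (-0.80 ± 0.23). Both mRpL14 differences were called in all 6 tables. The vir call of mRpL14 was lost without vir egg 2 (-0.67).

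The direction was not the same across species for many of these genes. One gene, mRpL50, was called higher in all 4 species and none was called lower in all 4. Of the 34, 15 were called in both directions depending on the species, 10 (mRpL50 among them) only higher, 8 only lower and 1, mRpS22, in no species. How all genes split over these patterns was not counted, so the patterns are not read as particular to this set. mRpL50, a mitochondria-specific protein of the large subunit (3L:7236173-7237032), differed by 0.63 in pse, 0.51 in vir, 0.64 in yak and 0.48 in mel. In the table that gave the lowest values the differences were -0.15, -0.03, -0.09 and -0.29 in the same order, and none was called there. A test of whether the embryo minus egg difference was equal in the 4 species rejected equality for 27 of 34 genes (limma F test, with 89.0% of all genes called). The direct comparison with mel called the difference in yak higher for 3 and lower for 11 genes (20.7% and 26.4% of all genes), that in pse higher for 5 and lower for 12 (26% and 31.1%), and that in vir higher for 8 and lower for 13 (33.6% and 32.3%). The F test and this comparison are given for the 75th percentile only, and the scalings did not shift the species alike. From the 75th to the 50th percentile the median over the 34 genes went from 0.25 to 0.615 in mel. In vir it went from 0.13 to -0.11.

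The 4 largest F statistics were those of mRpS10 (64.08), mRpL3 (48.26), mRpL30 (47.6) and mRpL32 (43.24). mRpS10, a protein of the small subunit head (3R:11055377-11056238), had 33.91, 34.03, 34.04, 36.41 and 37.73 FPKM in vir embryos and 145.8 and 142.5 FPKM in vir eggs. The vir embryos lay within 4 FPKM of each other and far below the eggs, a difference of -2.01 ± 0.15 (adjusted p = 4.73e-11) that was called in all 6 tables. In pse the embryos, at 77.0 to 89.55 FPKM, were above the egg, at 50.01 FPKM (0.75 ± 0.20), and in mel the embryos, at 99.81 to 126.3 FPKM, were above the eggs, at 83.45 and 66.69 FPKM (0.55 ± 0.15). The mel call was lost without mel egg 3 (0.39). The direction in pse and mel turned with the 95th percentile (-0.03 and -0.23), whereas in vir it did not.

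mRpL30 (X:4541909-4542682) differed in opposite directions under every scaling. It had 53.24, 53.88, 54.71, 56.82 and 57.79 FPKM in pse embryos and 23.34 FPKM in the pse egg, a difference of 1.21 ± 0.21 (adjusted p = 2.67e-05). It had 7.71, 8.46, 16.06, 18.01 and 18.69 FPKM in vir embryos and 32.27 and 26.75 FPKM in vir eggs, a difference of -1.23 ± 0.16 (adjusted p = 4.9e-07). In mel it had 21.99 to 43.59 FPKM in embryos and 63.27 and 58.59 FPKM in eggs (-1.01 ± 0.16). The gene was thus higher in embryos than in the egg in pse, and lower in vir and mel, each in all 6 tables. Its annotated span was 2259 bases in pse, 2140 bases in vir and 1907 bases in yak, against 774 bases in mel.

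mRpL32 (3R:27078623-27079408) had 9.18, 9.73, 10.32, 10.45 and 11.94 FPKM in pse embryos and 43.13 FPKM in the pse egg, a difference of -1.96 ± 0.19 (adjusted p = 4.2e-09) called in every table. In mel and yak its differences were 0.46 and 0.43, and both had the other sign with unscaled FPKM (-0.17 in each species). The mel call of mRpL32 was lost without mel egg 3 (0.36) and the yak call without yak egg 2, and the vir call (-0.34) was lost without any one of 3 libraries (vir male embryo 3, vir female embryo 3 or vir egg 1), with differences of -0.47 to -0.22 over all such fits. Singled out after their values were seen, mRpL11, at the base of the stalk (3R:10337589-10338415), was called higher in yak embryos and lower in pse embryos in all 6 tables. It had 74.93 to 130.1 FPKM in yak embryos and 37.31 and 39.37 FPKM in yak eggs (1.21 ± 0.15), and 11.78 to 15.24 FPKM in pse embryos and 33.68 FPKM in the pse egg (-1.27 ± 0.20). mRpL24 (2L:4944255-4945343), singled out likewise, was called higher in both pse (1.35 ± 0.23) and vir (1.01 ± 0.17) embryos in all 6 tables, with no overlap of embryos and eggs. In yak and mel it was called lower in embryos, in 5 of the 6 tables each, with 22.63 to 34.9 FPKM in yak embryos and 39.88 and 53.26 FPKM in yak eggs (-0.73 ± 0.17), and 29.43 to 53.23 FPKM in mel embryos and 60.14 and 58.0 FPKM in mel eggs (-0.62 ± 0.17). Its embryos thus lay above the eggs in pse and vir and below them in yak and mel.

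The 2 subunits and the 2 families did not separate by direction in all species. Of the 20 large subunit genes, 4 were called higher and 8 lower in pse, 9 and 6 in vir, 5 and 5 in yak and 9 and 4 in mel embryos. Of the 14 small subunit genes, 2 were called higher and 3 lower in pse, 3 and 4 in vir, 1 and 3 in yak and 7 and 1 in mel embryos. With unscaled FPKM the mel counts were 1 and 10 for the large and 0 and 6 for the small subunit. The summed level of the large over the small subunit was 1.033 to 1.175 in pse embryos, against 1.572 in the pse egg, and 1.054 to 1.19 in vir embryos, against 0.9484 and 0.9487 in vir eggs. In mel and yak it was 1.005 to 1.07 and 1.208 to 1.365 in embryos, against 1.078 to 1.162 and 1.149 to 1.278 in eggs. The ratio was below the egg in pse and mel embryos and above the eggs in vir embryos, and it overlapped in yak. Of the 22 genes shared with bacteria, 5 were called higher and 9 lower in pse, 9 and 5 in vir, 4 and 6 in yak and 11 and 5 in mel embryos. Of the 12 mitochondria-specific genes, 1 was called higher and 2 lower in pse, 3 and 5 in vir, 2 and 2 in yak and 5 and 0 in mel embryos.

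Most of the genes had been classed by the authors as maternal, on evidence that includes the same egg and embryo levels in yak, pse and vir and an earlier study in mel. The class was maternal for 34 genes in yak, 31 in pse, 30 in vir and 26 in mel, and 21 genes were maternal in all 4 species. How all genes split over the classes was not counted. Classed as zygotic were mRpL35 in pse, with high confidence, and mRpL2 in pse and mRpL22 in vir, each with low confidence. In mel 8 genes were classed as both maternal and zygotic, and 4 of these were X-linked (mRpL3, mRpL22, mRpL38 and mRpS25). The authors marked 10 of the yak, 9 of the pse and 17 of the vir classes as of low confidence. As the yak, pse and vir classes were drawn from the levels above, they describe the same values.

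Other genes of mitochondrial and cytoplasmic translation were measured beside them. The gene tko encodes the mitochondrial counterpart of S12 at the decoding centre under another name. It had 11.24 to 21.85 FPKM in vir embryos and 35.68 and 45.84 FPKM in vir eggs, a difference of -1.36 ± 0.27 (adjusted p = 9.43e-05), and its difference was -0.58 for pse, -0.62 for yak and 0.32 for mel. CG10602, whose current name is mRpL13, had differences of -0.54 for pse, -0.80 for vir, 0.18 for yak and 0.33 for mel. Of 12 mitochondrial gene expression factors, 2 were called higher and 4 lower in pse, 7 and 4 in vir, 1 and 8 in yak and 2 and 7 in mel embryos. With the 50th percentile these counts were 4 and 2, 6 and 4, 2 and 6, and 2 and 5 in this order. With the 95th they were 0 and 8, 6 and 4, 1 and 11, and 2 and 10. Among the factors mtSSB, the single-stranded DNA binding protein of mitochondrial DNA replication, had differences of -2.75 (pse), -3.04 (vir), -3.39 (yak) and -1.84 (mel). Of 12 mitochondrial tRNA synthetases, 2 were called higher and 4 lower in pse, 7 and 4 in vir, 2 and 3 in yak and 4 and 7 in mel embryos.

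Nuclear genes for subunits of oxidative phosphorylation were called higher more often than lower, for 17 against 1 of 31 in pse, 13 against 4 in vir, 18 against 4 in yak and 19 against 5 in mel embryos, with medians of 0.80, 0.28, 0.60 and 0.77 in this order. With the 95th percentile the split turned in vir (6 higher and 13 lower), yak (2 and 10) and mel (3 and 10) and was even in pse (6 and 6). Cytoplasmic ribosomal protein genes were called higher for 49 (pse), 38 (vir), 50 (yak) and 53 (mel) of 54 and lower for none, with medians of 1.22, 0.63, 1.27 and 1.27. Their medians stayed above 0 in 5 of the 6 tables, and with quantiles they were -0.08, -0.01, 0.06 and 0.01. The cytoplasmic RpL3 was an example, with differences of 1.70 in pse, 1.11 in vir, 1.78 in yak and 1.69 in mel, beside -3.65, 0.46, -1.81 and -0.56 for mRpL3. In the 75th percentile table the genes of the cytoplasmic ribosome thus were nearly all on one side, while those of the mitochondrial ribosome were on both.

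The sex of the embryo was then compared within each species, since females carry 2 X chromosomes and males 1 before dosage compensation is complete. X-linked here means on the X of D. melanogaster, and in pse mRpL3 and mRpS30 are placed on unassigned scaffolds. For the 8 X-linked genes the female minus male difference was below 0 only for mRpL14 and mRpS14 in yak and mRpL22 in pse. Its median was 0.28 in pse, where all X-linked genes had a median of 0.20, 0.79 in vir (all 0.33), 0.34 in yak (all 0.19) and 0.73 in mel (all 0.33). Called higher in females was 1 of the 8 in pse (14.4% of all X-linked genes), 4 in vir (15.8%), 1 in yak (16.4%) and 3 in mel (16.9%), and none was called lower. All females lay above all males for 4 of the 8 genes in pse, 7 in vir, 4 in yak and 7 in mel, where 41.8%, 51.9%, 30.6% and 45.2% of all X-linked genes did so. These calls rest on a spread shared across the 4 species. In fits of each species alone 1 of the 8 genes was called in mel (mRpL22) and 0 in yak, pse and vir.

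**Figure D4:**
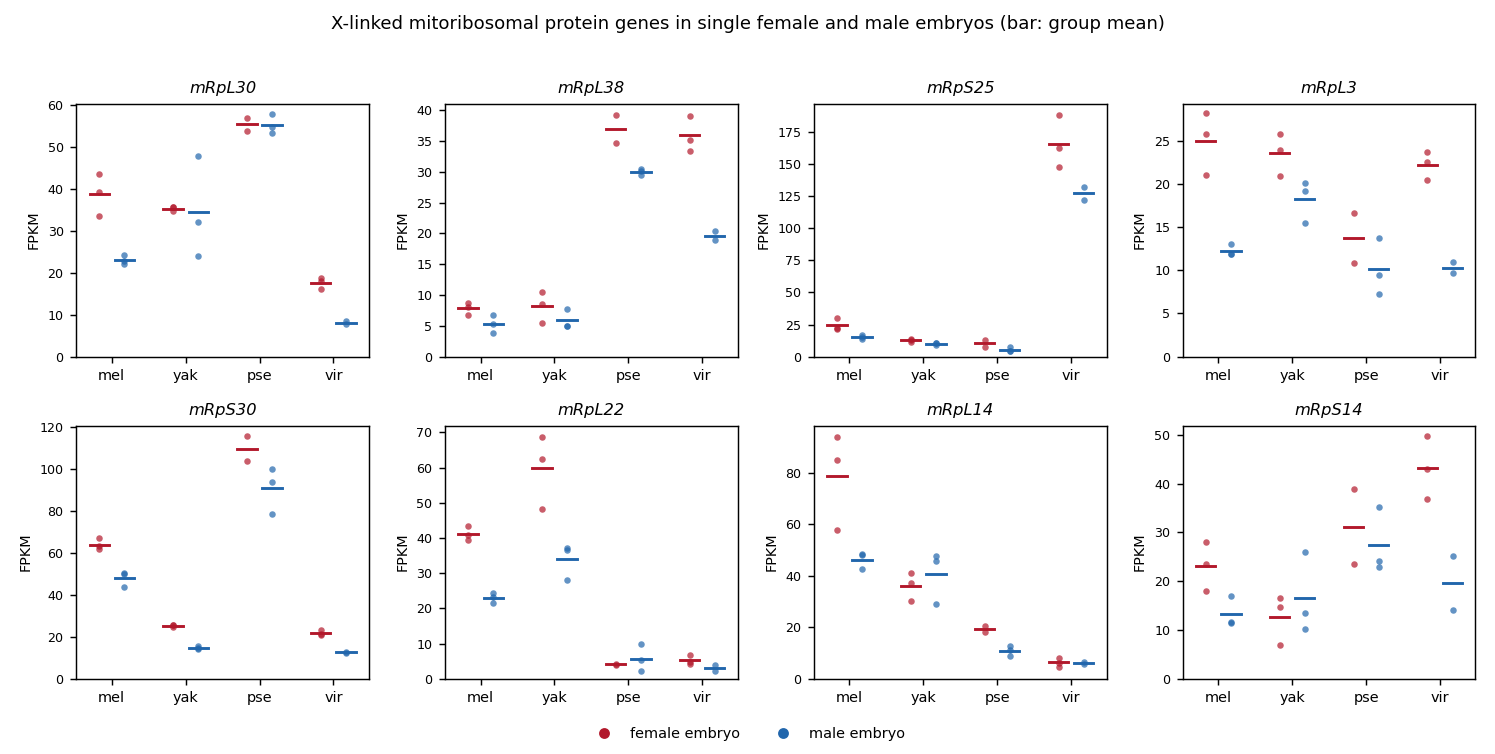
FPKM of the 8 X-linked mitochondrial ribosomal protein genes in each embryo, with females left of males in each species and bars at the means. The vir and mel females lie above the males of their species for 7 of the 8 genes each. Both mRpS30 and mRpS25 separate the sexes in all 4 species.

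mRpS30, named for the small subunit although its mammalian counterpart is found in the large one (X:15680085-15682072), was called higher in females in 3 species. In yak it had 25.54, 25.45 and 24.75 FPKM in females and 14.88, 14.28 and 15.4 FPKM in males, a difference of 0.73 ± 0.10 (adjusted p = 0.000347). In vir it had 21.4, 23.03 and 21.02 FPKM in females and 12.34 and 12.98 FPKM in males, a difference of 0.74 ± 0.11 (adjusted p = 0.00113). Females and males were closely grouped and well apart in both species. In mel it had 66.96, 61.71 and 63.35 FPKM in females and 43.57, 50.17 and 50.53 FPKM in males, a difference of 0.41 ± 0.10 (adjusted p = 0.0246). The yak and vir calls were kept in every fit that left out 1 library, and the mel call was lost in 5 of them. In pse the females had 104.1 and 115.6 FPKM and the males 93.69, 78.77 and 100.3 FPKM, again without overlap (0.28, adjusted p = 0.184).

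mRpL3 was called higher in mel and vir females. In mel it had 28.24, 25.73 and 21.07 FPKM in females and 13.1, 11.91 and 11.83 FPKM in males, a difference of 0.96 ± 0.19 (adjusted p = 0.00572). In vir it had 20.4, 23.66 and 22.58 FPKM in females and 9.63 and 10.98 FPKM in males, a difference of 1.04 ± 0.21 (adjusted p = 0.00892). Every female was above every male in both species. The vir eggs, at 9.91 and 11.68 FPKM, were at the level of the vir males. The mel call was kept in every fit that left out 1 library, and the vir call was lost without vir male embryo 2 (0.95). In yak and pse the differences were 0.35 and 0.41, and neither was called.

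mRpL30 was also called in mel and vir. In mel it had 43.59, 33.44 and 39.33 FPKM in females and 22.7, 24.2 and 21.99 FPKM in males, a difference of 0.72 ± 0.16 (adjusted p = 0.0162). In vir it had 18.01, 18.69 and 16.06 FPKM in females and 7.71 and 8.46 FPKM in males, a difference of 1.03 ± 0.18 (adjusted p = 0.00393). The sexes did not overlap in either species. In yak the females (34.62 to 35.63 FPKM) lay within the range of the males (23.95 to 47.82 FPKM), and in pse females and males were at 53.24 to 57.79 FPKM together, differences of 0.08 and 0.00. A test of whether the sex difference varied among the 4 species gave F = 7.86 and an adjusted p of 0.0748 for mRpL30, and it was called for none of the 34 genes (1.38% of all genes). The mel call was lost without any one of 4 libraries, with differences of 0.64 to 0.83 over all such fits, and the vir call was lost without vir male embryo 2 (0.97).

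mRpL38, a protein of the central protuberance in mammals (X:14120323-14121983), was called in vir. It had 35.21, 39.11 and 33.45 FPKM in vir females and 18.86 and 20.32 FPKM in vir males, a difference of 0.84 ± 0.23 (adjusted p = 0.0476) that was lost in 16 of the fits that left out 1 library. mRpS25 was called in pse, with 7.77 and 13.19 FPKM in females and 7.45, 4.06 and 4.71 FPKM in males, a difference of 0.84 ± 0.21 (adjusted p = 0.023). The lower pse female was close to the highest pse male, and the call was lost without pse male embryo 2 (0.68), pse male embryo 3 (0.77) or pse female embryo 2 (0.49). In mel mRpS25 had 29.92, 21.18 and 22.24 FPKM in females and 13.49, 15.34 and 16.91 FPKM in males (0.64, adjusted p = 0.0799). In yak it had 11.67 to 13.99 FPKM in females and 9.45 to 10.44 FPKM in males. In vir it had 147.5 to 187.9 FPKM in females and 122.1 and 132.5 FPKM in males. The sexes of mRpS25 thus overlapped in no species.

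The other 3 X-linked genes were called in no species. mRpL22, which lines the exit tunnel in bacteria (X:16677986-16679125), had 40.71, 43.34 and 39.53 FPKM in mel females and 21.52, 24.22 and 23.11 FPKM in mel males (0.82, adjusted p = 0.17), and 68.59, 48.22 and 62.47 FPKM in yak females and 28.06, 37.14 and 36.44 FPKM in yak males (0.80, adjusted p = 0.224). The sexes did not overlap in either species. In the fit of each species alone the mel difference was called and the yak difference was not. In pse its levels were below 10 FPKM and the females lay within the males. mRpL14 had 93.93, 57.88 and 85.04 FPKM in mel females and 47.91, 48.31 and 42.49 FPKM in mel males (0.73, adjusted p = 0.0699), and 18 and 20.41 FPKM in pse females and 11.05, 12.53 and 8.70 FPKM in pse males (0.79, adjusted p = 0.0557). In yak and vir the sexes of mRpL14 overlapped, with differences of -0.15 and 0.01. mRpS14 (X:19373414-19373950), a protein of the small subunit head, had 49.72, 43.04 and 36.89 FPKM in vir females and 25.21 and 14.14 FPKM in vir males (1.14 ± 0.37, adjusted p = 0.13), and its sexes overlapped in yak and pse.

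The 26 genes that are autosomal in D. melanogaster did not follow this pattern. None was called in either direction in any species with limma. Of all genes, 5.36% were called higher and 0.990% lower in pse females, 2.82% and 0.290% in vir females, 2.80% and 0.290% in yak females and 3.02% and 0.461% in mel females. Most of the higher calls were genes of the X, with 154 of 165 in vir, 160 of 164 in yak and 165 of 177 in mel. In pse 141 of 314 were on the X and 167 on 3L. These shares thus are not those of autosomal genes, and the lack of calls among the 26 is not read as particular to them. All females lay above all males for 2 of the 26 in pse (8.83% of all genes of 2L, 2R and 3R), 1 in vir (6.73%), 0 in yak (2.36%) and 4 in mel (3.43%). All males lay above all females for 3 in pse (11.7%), 1 in vir (9.14%), 0 in yak (3.32%) and 0 in mel (3.69%). The 26 include the 6 genes of 3L, an arm that these percentages leave out. The 6 genes on 3L are X-linked in pse only. In pse 0 of the 6 was called, while 15.1% of all 3L genes were called higher in pse females (0.362% in vir, 0 in yak and 0.181% in mel), and all females lay above all males for 1 of the 6, against 43.0% of all 3L genes. Their median difference was 0.08 in pse, beside 0.22 over all 3L genes, and it was 0.06 in vir, -0.25 in yak and 0.13 in mel. The pse median depended on single females. It was -0.03 without pse female embryo 2, 0.25 without pse female embryo 1 and 0.42 with the 2 removed libraries put back, so that its place relative to the median of all 3L genes was not settled.

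**Figure D5:**
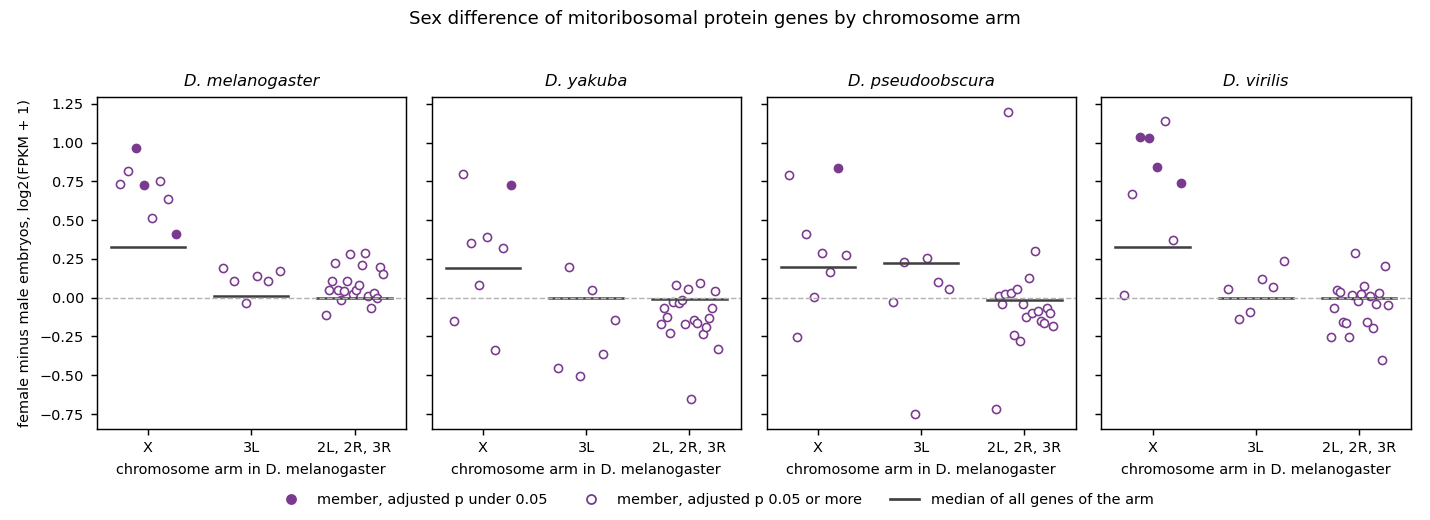
Female minus male difference in log2(FPKM + 1) of each gene by the arm it lies on in D. melanogaster, for the X, 3L and the other autosomal arms in each species, with a line at the median of all genes of the arm. The X-linked members lie mostly above 0 in vir and mel, and the 6 genes of 3L in pse lie about 0 with mRpL2 at -0.75.

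Of the 6 genes, the largest pse differences in size were those of mRpL2, mRpL50 and mRpL15 (3L:20428204-20429271). mRpL50 had 171 and 192.5 FPKM in pse females and 139.8, 148.7 and 167.2 FPKM in pse males, the 1 gene without overlap (0.26 ± 0.16, adjusted p = 0.512). mRpL15 differed by 0.23 ± 0.24 (adjusted p = 0.843). mRpL2 ran the other way, with 0.712 and 4.10 FPKM in pse females and 3.96, 3.70 and 4.23 FPKM in pse males (-0.75 ± 0.37, adjusted p = 0.347), and 1 of the 2 females was at the level of the males. The sex difference in pse was set against the mean of the other species directly, and it was called for 0 of the 34 genes (1.52% of all genes were called higher and 0.649% lower, with 7.34% of all 3L genes and 0.615% of all X-linked genes higher).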

How the data were processed

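Polyadenylated RNA of single embryos and eggs had been sequenced by the authors (TruSeq libraries, Illumina HiSeq) without amplification of the input RNA. Reads had been aligned with Bowtie2 (version not given in the sources used here) to FlyBase release 5 or to the species' own annotations, and transcript levels had been estimated with eXpress and summed per gene. The authors deposited the values as log10 (normalized FPKM + 1) in 6 tables that differ in the scaling. The 75th percentile table was the main one here, and the others, one of them FPKM with no further scaling, were alternatives. The tables also hold the authors' classes of maternal or zygotic origin. No column of per-sample values was left without a library (0).

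Values were turned back to FPKM and tested as log2(FPKM + 1), a scale that understates changes of low genes, with limma 3.58.1 in R 4.3.3 (empirical Bayes with trend). Egg and species comparisons came from 1 fit of 29 libraries in 12 groups (5983 genes), with the embryo mean taken as the mean of both sexes. Sex comparisons came from 1 fit of 22 embryos (5856 genes). Genes with a mean above 1 FPKM in at least 1 group were kept, p-values were adjusted over all of them by Benjamini-Hochberg, and a call is an adjusted p below 0.05. Of 31 libraries 2 were left out, as in the study. The scripts were tested on simulated data. A planned count of promoter motifs was not run, and no sequences are shown. No 2 libraries were duplicates. Current gene symbols were found for 32 of the 34 genes and 5671 of all genes.

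The genes and the lists were chosen with earlier results of these data known. Genes named with values were all on the X, the 3 on 3L with the largest sex differences in pse, the 4 highest and 4 lowest mean embryo minus egg differences, the 4 largest F statistics, the 3 highest and 3 lowest mean embryo levels, the 4 largest spans between species, mitoribosomal genes under other names, any gene called between sexes, and up to 3 of each other list. The alternatives were the 5 other tables, pseudocounts of 0.1 and 10 FPKM, no filter, a mean above 10 FPKM, the 2 libraries put back, fits of each species alone, the replicate number as a block, and each library left out in turn. The F test of the sex difference over species was added after the values were seen.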

Additional observations from a re-analysis of the deposited data

Results flagged for a closer look

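The embryo minus egg difference was not equal in the 4 species for 27 of the 34 genes (limma F test, adjusted p below 0.05), beside 89.0% of all genes. The largest statistics were those of mRpS10 (F = 64.08), mRpL3 (48.26), mRpL30 (47.6) and mRpL32 (43.24). mRpS10 was lower in vir embryos than in vir eggs and higher in mel and pse embryos, mRpL3 was lower in pse, yak and mel embryos (in mel not without mel egg 3) and was not called in vir, mRpL30 was higher in pse and yak embryos and lower in vir and mel embryos, and mRpL32 was lower in pse and vir embryos and higher in mel and yak embryos. Without mel egg 3 the mel calls of mRpS10 (0.39) and mRpL32 (0.36) were lost, as was the yak call of mRpL32 without yak egg 2 and its vir call without vir male embryo 3, vir female embryo 3 or vir egg 1. The pse value rests on 1 egg. The annotated spans of mRpL3 and mRpL30 differ between species, and the part of the gene models in these differences was not tested.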

How the results depend on the processing

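The 6 scalings moved the embryo minus egg results most, and the cause of single reversals was not tested beyond the shift of all genes. Medians over the 34 genes in mel, yak, pse and vir were -0.38, -0.60, -0.65 and -0.33 with unscaled FPKM, 0.61, 0.51, 0.585 and -0.11 with the 50th percentile, -0.53, -0.71, -0.79 and -0.40 with the 95th, and -0.135, -0.21, -0.24 and -0.34 with TMM. Counts called higher and lower were 1 and 16 (mel), 1 and 21 (yak) and 3 and 19 (pse) with unscaled FPKM, 19 and 3 (mel), 19 and 4 (yak) and 15 and 7 (pse) with the 50th percentile, 1 and 20, 1 and 24, and 3 and 20 with the 95th, and 6 and 8 in mel with TMM. X-linked genes called between sexes in pse were 0 with unscaled FPKM and 2 with the 95th percentile or TMM, and the mel X-linked median was 0.617 with quantiles. The direction turned with unscaled FPKM in mel for mRpL48 (-0.577), mRpL14 (-0.571), mRpL45 (-0.161), mRpS10 (-0.079) and mRpL32 (-0.168), and in yak for mRpL48 (-0.541), mRpL45 (-0.585) and mRpL32 (-0.173). With the 95th percentile it turned in mel for the same genes (-0.72, -0.717, -0.307, -0.226 and -0.314), in yak for mRpS24 (-0.482), mRpL48 (-0.642), mRpL45 (-0.693), mRpL30 (-0.02) and mRpL32 (-0.28), and in pse for mRpS10 (-0.026).

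With a pseudocount of 10 FPKM the X-linked genes called were 6 in mel, 2 in yak and 0 in pse, with medians of 0.533 in mel and 0.549 in vir, and with a mean above 10 FPKM 2 were called in pse. With the 2 removed libraries put back, 1 was called in mel, 2 in pse and 2 in vir, the vir X-linked median was 0.622, the pse 3L median 0.419 and the vir embryo minus egg median 0.235. In fits of each species alone 10 genes were higher in pse embryos, and the X-linked genes called numbered 1 (mel), 0 (yak), 0 (pse) and 0 (vir). A pseudocount of 0.1 FPKM and no filter left all 33 counts and medians close to their main values.

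The main fits did not pair libraries by replicate number. Deviations of same-numbered libraries correlated over 0.1 in 6 of 21 pairs (-0.171 to 0.468). The highest values were those of vir females with vir males (0.348 and 0.468), and whether same-numbered libraries were handled together was not tested. With the replicate number as a block, 7 genes were lower in pse embryos than in the egg, the vir median was 0.236, 12 genes differed between pse and mel eggs, and 1 X-linked gene was called in mel and 0 in pse.

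Leaving out each library in turn, except the 1 pse egg in pse contrasts, gave ranges of 9 to 17 higher and 4 to 6 lower genes in mel (median 0.227 to 0.277), 4 to 7 and 7 to 10 in yak (-0.162 to 0.121), 5 to 9 and 10 to 13 in pse (-0.097 to 0.015) and 10 to 13 and 6 to 10 in vir (0.008 to 0.197, lowest without vir egg 2). The F test called 24 to 28. Differences between species in eggs were called for 8 to 16 genes in yak (8 without mel egg 2), 16 to 20 in pse and 19 to 24 in vir. X-linked genes called were 1 to 5 in mel, 1 to 2 in yak, 0 to 2 in pse and 1 to 4 in vir (1 without vir male embryo 2), with medians of 0.623 to 0.754, 0.236 to 0.407, 0.163 to 0.444 and 0.748 to 0.833, and the pse 3L median was -0.033 to 0.247. With unknown depth and 1 or 2 eggs a species, calls of genes below a few FPKM are the least certain.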

Other observations

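mRpL1, mRpL15 and mRpL22 had low levels in vir eggs. mRpL22 was at 2.14 to 6.78 FPKM in vir embryos and 0.585 and 0.755 FPKM in vir eggs, and at 21.52 to 43.34 FPKM in mel embryos and 11.36 and 20.85 FPKM in mel eggs. mRpL15 was at 0.657 and 1.33 FPKM in vir eggs, against 55.22 and 54.7 FPKM in mel eggs, and mRpL1 at 1.65 and 2.05 FPKM in vir eggs, against 70.6 and 61.68 FPKM in mel eggs. These genes, with mRpS16, were those with a class other than maternal in vir, each of low confidence. mRpL1, mRpL15 and mRpS16 were singled out after their values were seen.

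The pse female embryo that was left out had 2.66 FPKM of mRpL35, within the range of the 5 pse embryos used, and 6.42 FPKM of mRpL2, above all 5 of them.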
